A study of Mus musculus with 8 samples.

Results

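Very high coverage cytosines are positions where reads pile up far beyond the depth of the rest of a library, and here they were used as a view of repeated sequence. A cytosine of a CpG on chromosomes 1 to 19 was taken when it had at least 1000 reads in each of the 8 libraries, and the ribosomal DNA stretch of chromosome 17, which overlaps the 18S rRNA gene Rn18s-rs5, was left out. This gave 167 cytosines, of 3104849 listed in any library and 1480441 listed in all 8 libraries on these chromosomes. Cytosines with gaps of at most 1 kb were joined into 24 loci on 12 chromosomes, and each locus is named by its chromosome and a letter in order of position. The cytosines were chosen by their coverage alone, so coverage is described below and never tested, whereas the methylation level took no part in the choice.

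The assay was reduced representation bisulfite sequencing of CpG methylation, which reads the ends of restriction fragments after unmethylated cytosines have been converted. The tissue was the dDG DGC layer of the brain of male C57 BL/6 mice, taken here to mean the dorsal dentate gyrus and its layer of granule cells. The groups were 4 mice given cocaine to self-administer and 4 given saline in the same way, of the same genotype and sex, with 1 library each. The sources used here give no age, dose or time since the last session. DNA came from a dissected layer, so cells of other types may be present, and methylation calls hold no marker expression with which the label could be checked.

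Tandem repeats such as the major satellite next to mouse centromeres, the minor satellite at the centromere and the ribosomal RNA genes occur in very many copies, most of which a reference assembly leaves out. Reads from all the copies are then placed on the few positions that the assembly holds, so a level at such a position is an average over copies and over cells. In somatic tissue satellite DNA is as a rule densely methylated and packed in heterochromatin, while ribosomal DNA holds active, unmethylated and silent, methylated units.

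The libraries held between 87964952 and 141775386 listed reads, and the median coverage of the common autosomal cytosines was 45, 61, 44 and 47 reads in cocaine 1 to 4 and 62, 54, 78 and 61 reads in saline 1 to 4. The high-coverage cytosines had a median lowest coverage of 3246 reads. Among the 8 libraries, cocaine 3 had the lowest level at 11 of the 24 loci, and saline 1 listed more cytosines than any other library, 2236384. Results are therefore also given without these libraries. The labels name separate mice, and the p-values below set the differences against the spread between mice. Reads carried no molecular identifiers in the labels used, so intervals and errors from read counts cover counting error only.

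The coverage minimum cut through a continuous range. The cytosines just inside it were 3 cytosines of locus chr6-b, whose lowest coverage was 1024, 1025 and 1026 reads and whose mean levels were 97.7%, 95.3% and 53.0%. Just outside lay 3 cytosines on chromosome 2 with a lowest coverage of 988, 983 and 972 reads and mean levels of 5.37%, 84.7% and 97.2%.

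Most loci were short, and they lay both inside genes and away from them. Of the 24 loci, 20 spanned at most 146 bp and 4 spanned 662 to 1049 bp, and 19 were read on 1 strand only. Only 8 loci lay inside a gene of the RefSeq table and 5 of these inside a protein-coding gene, while 12 lay more than 10 kb from any gene and the other 4 between 2234 and 7642 bp from one. No locus had another gene within 1 kb of it, genes for ribosomal RNA, transfer RNA, small nuclear RNA and microRNA included. Locus chr6-d at chr6:103649167-103649288 lay in Chl1, which encodes a neural cell adhesion molecule of the L1 family. Locus chr13-a at chr13:44869800-44869885 lay in Jarid2, which encodes a subunit of the Polycomb repressive complex PRC2. Locus chr1-a at chr1:174024043-174024077 lay in Ifi205, a gene of the interferon-inducible family, and chr11-b at chr11:3193483-3193628 lay in Sfi1, which encodes a centrosomal protein that binds centrin. Locus chr10-a at chr10:22142710-22142775 lay in E030030I06Rik. Locus chr11-a lay in the pseudogene Pisd-ps1, and chr9-b and chr11-d lay in the long noncoding RNA genes Gm33838 and Gm36876. The gene table gives no exons, so exon and intron could not be told apart, and positions are those of mm10.

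The loci fell into a heavily methylated majority and a sparsely methylated minority. The mean level over the cytosines of a locus was at least 60% at 16 loci, between 30% and 60% at 4 loci and under 30% at 4 loci. The highest was chr10-b at 96.2%, followed by chr9-a at 89.2% and chr1-a at 87.2%. The lowest were chr8-a at 17.4%, chr13-a at 18.1% and chr11-d at 20.1%. Averaged over the 167 cytosines, the level was 66.2%, 66.8%, 64.6% and 66.5% in cocaine 1 to 4, against 65.8%, 67.2%, 65.8% and 66.2% in saline 1 to 4. The means were 66.0% ± 0.951 in cocaine mice and 66.3% ± 0.648 in saline mice (SD, n = 4 each), a difference of -0.248 points that lies within either SD. Without cocaine 3 it was 0.215 points, and without cocaine 3 and saline 1 together 0.0651 points. Without saline 2 it was 0.0617 points, so its sign turned when either cocaine 3 or saline 2 was left out. The rest of the autosomal cytosines averaged 37.2% ± 0.702 in cocaine mice and 37.9% ± 0.173 in saline mice (SD, n = 4 each).

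**Figure D1:**
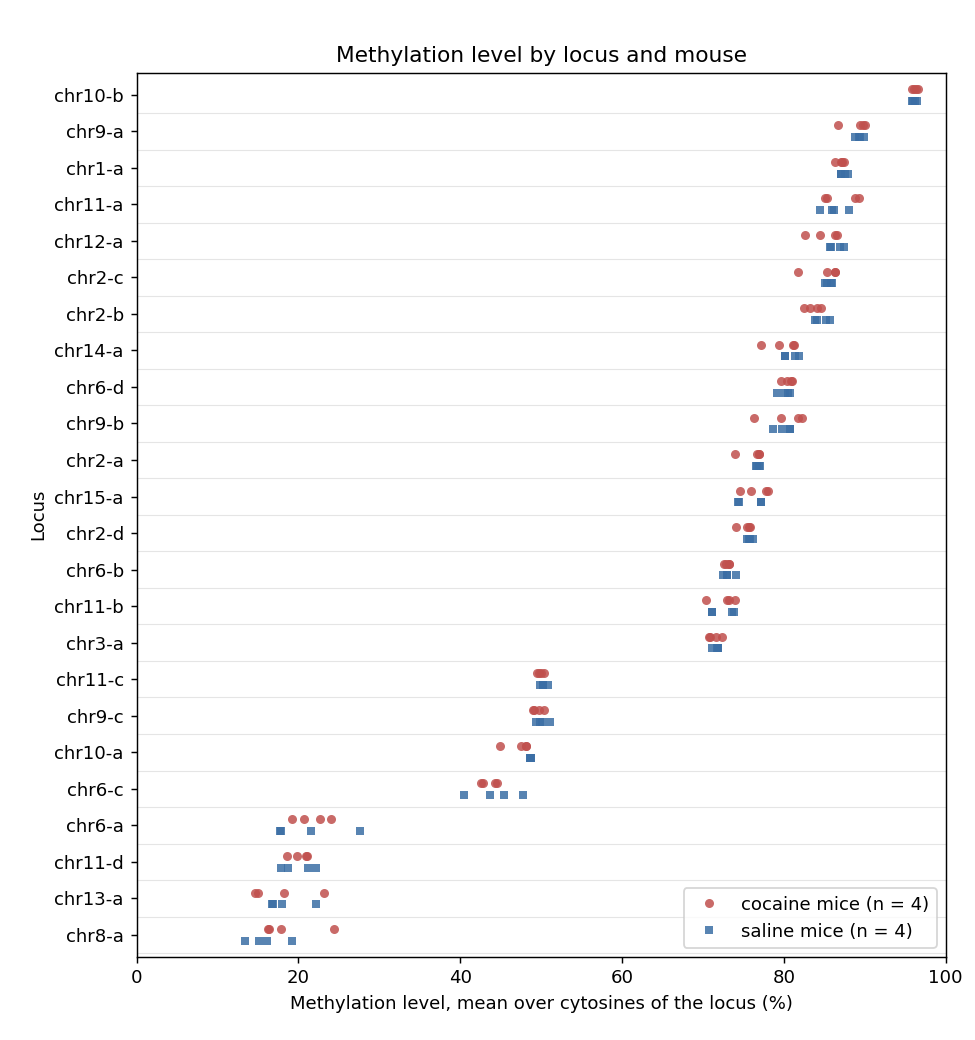
Methylation level of each locus in each mouse, as the mean over its cytosines in percent, with cocaine mice as circles above saline mice as squares and loci ordered by their mean. The points of both groups lie close together at each locus, while the loci range from 17.4% at chr8-a to 96.2% at chr10-b.

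The largest pile-up lay on chromosome 2. Locus chr2-c at chr2:98666262-98667310 held 35 cytosines and 64.0% of all reads on the high-coverage cytosines, and chr2-a at chr2:98662265-98662926 held 23 cytosines and 13.9% of them. The nearest gene, Gm33780, lay 35289 bp from chr2-c. A single cytosine of chr2-c on the minus strand, 242 bp from its start, had between 515467 and 1212491 reads in a library. That cytosine alone carried 34.0% of the reads on the high-coverage cytosines and was methylated at 96.3% to 97.1% in every library. The other cytosines of chr2-c had mean levels from 65.2% to 96.2%.

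The spacing of CpGs was used to describe which loci resemble each other, since no genome sequence was used here. Within chr2-c, pairs of CpGs lay 251 bp apart 7 times and 234 bp apart 5 times, and 485 bp, the sum of these distances, occurred 5 times. As background, 234 bp is the known length of the mouse major satellite unit. Every CpG of chr9-a at chr9:3001454-3001512 (4 of 4, on the opposite strand), chr9-b at chr9:35305418-35305494 (3 of 3) and chr12-a at chr12:3109883-3110026 (4 of 4) had a counterpart in chr2-c at the same relative distance, and so did 4 of 6 CpGs of chr14-a at chr14:19416954-19417904. With so few CpGs some matches arise by coincidence, and the repeat family of these loci is not annotated in the sources used here. In the left-out ribosomal DNA stretch of chromosome 17, chr9-a and chr12-a also matched 4 of 4 CpGs and chr14-a 4 of 6. For these loci the match is thus not particular to chr2-c, and loci with the spacing of chr2-c is used below only as a short name. The levels of these 5 loci lay between 79.98% at chr9-b and 89.2% at chr9-a. All 3 CpGs of chr6-d, including a distance of 120 bp, the known length of the minor satellite unit, had counterparts in chr2-a. The levels were 80.3% at chr6-d and 76.5% at chr2-a.

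In the middle of chr2-a, between 291 and 421 bp from its start, levels differed from CpG to CpG by more than they differed between mice. The CpG at 336 bp was methylated at 46.9% on the plus strand and 34.0% on the minus strand, and the next, at 364 bp, at 58.6% and 69.9%. The CpGs on either side had levels between 79.3% and 89.6%. The difference of 12.8 points between the strands at the first of these CpGs was the largest among the 23 CpGs that were read on both strands, whose median absolute difference was 2.40 points. Reads of opposite strands need not come from the same copies, and a difference between strands of 1 CpG and a difference between sets of copies cannot be told apart.

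Another group of loci shared a spacing exactly. Loci chr2-d at chr2:167284022-167284116, chr3-a at chr3:31183030-31183124 and chr6-b at chr6:24928561-24928655 have CpGs at 0, 31, 36, 41 and 94 bp from their start, and all were read on the plus strand. Their first CpG was methylated at 97.3%, 97.9% and 97.7%, and their CpGs at 31 to 41 bp at 90.3% to 95.3%. Their last CpG, at 94 bp, was methylated at 0.941%, 1.40% and 1.00%. The extra CpG of chr3-a at 28 bp had a level of 46.6%, and those of chr6-b at 49 and 91 bp had levels of 79.4% and 53.0%. The locus means of 75.5%, 71.5% and 73.0% are thus averages of cytosines at opposite ends of the scale.

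**Figure D2:**
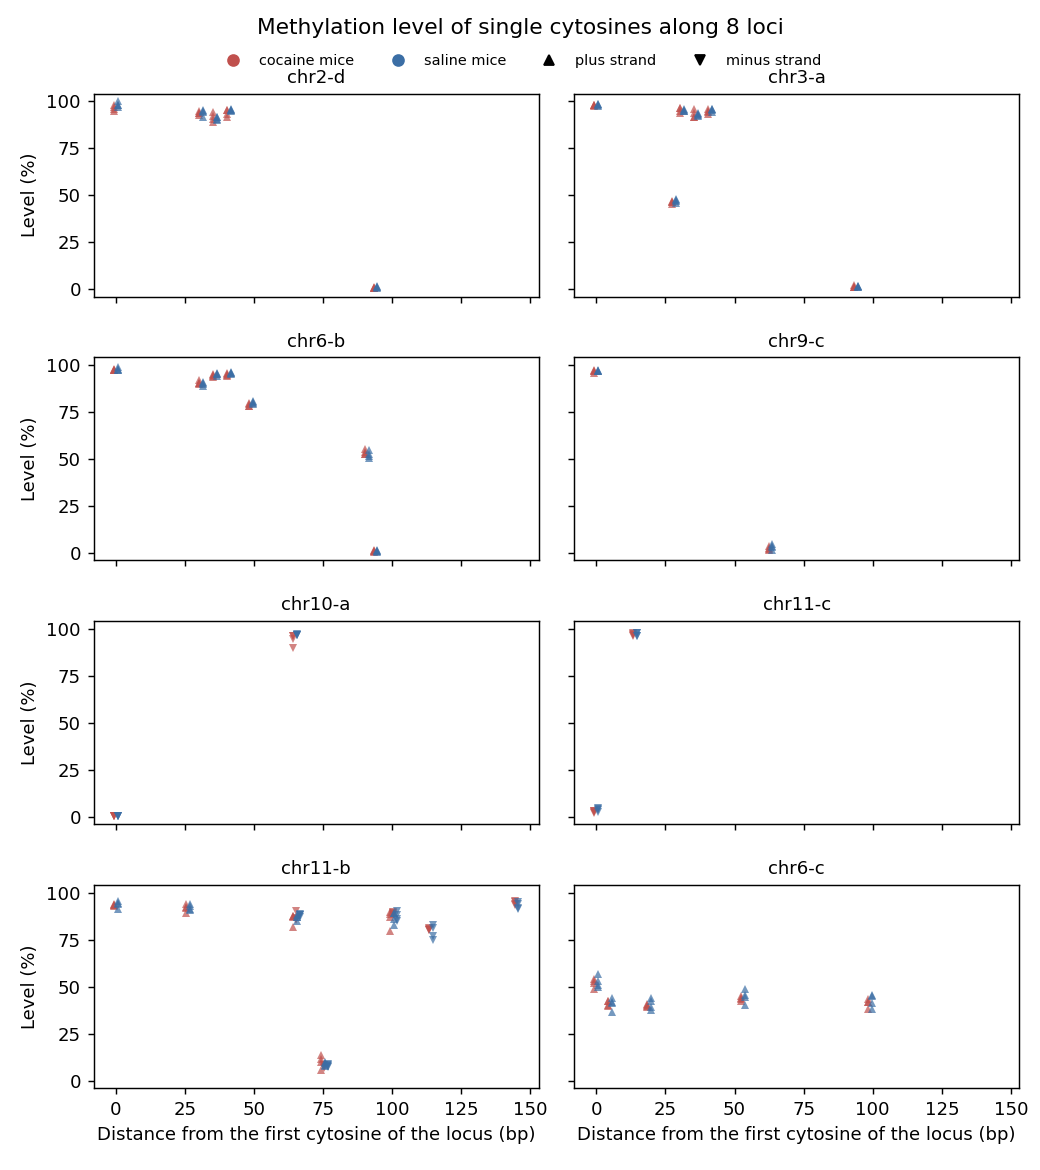
Methylation level in percent of each cytosine against its distance in bp from the start of the locus, for 8 loci and all mice, with cocaine mice drawn just left of saline mice and the strand shown by the direction of the triangle. In chr2-d, chr3-a, chr6-b, chr9-c, chr10-a and chr11-c the cytosine at the end of the read direction lies near 0% while the first has a mean over the 8 libraries above 95%, whereas the cytosines of chr6-c have means between 40.4% and 52.2%.

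The same near-complete switch marked the loci whose mean lay near 50%. Locus chr9-c at chr9:74774365-74774428 had 96.8% at its first cytosine and 2.80% at its second, 63 bp further on along the plus strand. Locus chr10-a, read on the minus strand, had 95.5% at the first cytosine in the read direction and 0.384% at the second. Locus chr11-c at chr11:15939636-15939650, also on the minus strand, had 96.98% and then 3.20%. Of the 7 high-coverage cytosines with a level under 5%, 6 were the last of their locus in the read direction. The exception was the cytosine of chr2-a at 638 bp, at 2.79%, which was followed by 2 more cytosines on its strand. The cytosine just outside the coverage minimum with 5.37% likewise followed 1 at 97.2% on the plus strand.

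Copies of the spacing of chr2-d, chr3-a and chr6-b elsewhere in the genome were read in either direction, which showed how the level moved with the place in the read. They had a mean coverage from 13.6 to 51.8 reads per library, except a copy on chromosome 5 with 1164 reads. In 10 copies read so that the CpG at 94 bp came last, that CpG had a median level of 0.481% (0% to 4.42%), and the CpG at 0 bp, read first, had a median of 97.02% (73.7% to 99.5%). In 15 copies read in the other direction, the CpG at 0 bp came last and had a median level of 0.758% (0% to 2.97%), while the CpG at 94 bp, read first, had a median of 98.9% (94.1% to 100%). The 3 copies that were read in both directions are in both counts. The level of the end CpGs therefore went with their place in the read and not with their place in the repeat. Library preparation for this assay fills in fragment ends with unmethylated cytosines, and trimming is not given in the sources used here. The part of this fill-in in the low levels was not tested.

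**Figure D3:**
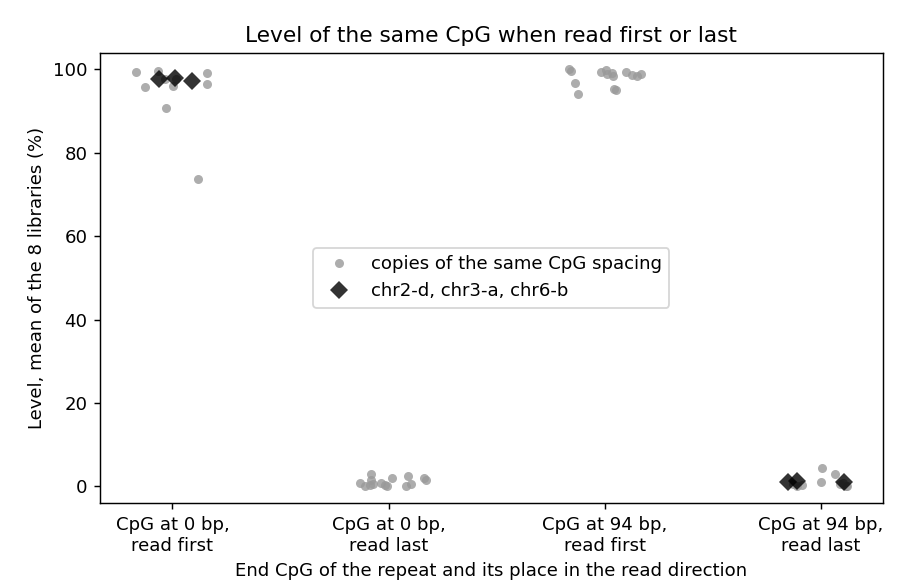
Methylation level in percent, as the mean of the 8 libraries, of the CpGs at 0 and 94 bp of the shared repeat when read first or last, with black diamonds for chr2-d, chr3-a and chr6-b and grey circles for copies elsewhere. Each CpG lies at 73.7% or above when read first and at 4.42% or below when read last.

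Leaving out the cytosines under 5% raised the levels of these loci and brought chr9-c, chr10-a and chr11-c into the heavily methylated range. On the remaining cytosine, chr9-c had 96.7% ± 0.556 in cocaine mice and 96.96% ± 0.448 in saline mice, and chr11-c had 97.01% ± 0.624 in cocaine mice and 96.9% ± 0.807 in saline mice (SD, n = 4 each). Locus chr2-d reached 93.8% ± 1.06 in cocaine mice and 94.5% ± 0.267 in saline mice (SD, n = 4 each).

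A low cytosine of another kind lay in chr11-b. The CpG 75 bp from its start was methylated at 9.48% on the plus strand and 7.90% on the minus strand, while the CpGs before and after it had 86.4% and 86.5% on the plus strand and 87.5% and 88.1% on the minus strand. This CpG was low in both read directions and was the last cytosine in neither.

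The 4 sparsely methylated loci showed no such switch. Their cytosines lay between 15.4% and 26.5% at chr6-a (chr6:3201422-3201515), between 12.2% and 22.7% at chr8-a (chr8:15519870-15519959), between 12.2% and 25.8% at chr11-d (chr11:109011956-109012011) and between 14.4% and 22.7% at chr13-a. Locus chr6-c was intermediate, with the means of all 5 cytosines between 40.4% and 52.2%. The left-out ribosomal DNA stretch of chromosome 17 had a pooled level of 16.6% ± 0.731 in cocaine mice and 17.1% ± 3.10 in saline mice (SD, n = 4 each). Averaged over its cytosines, as for the loci, it had 17.8% ± 1.39 in cocaine mice and 21.6% ± 5.18 in saline mice (SD, n = 4 each). In CpG spacing, chr6-a matched 9 of 10 CpGs in this stretch, chr8-a and chr13-a 5 of 8, and chr11-d 5 of 7. Heavily methylated loci matched as well, with 5 of 6 at chr3-a and 4 of 4 at chr15-a. With 792 cytosines listed in the stretch, some matches arise by coincidence.

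Of the sparsely methylated loci, chr6-a, chr13-a and chr8-a varied most between mice of 1 group among all 24 loci. The largest SDs within groups were 3.61 points at chr6-a, 3.33 points at chr13-a and 3.24 points at chr8-a, while the fourth sparsely methylated locus, chr11-d, had 1.66 points. Locus chr6-a had 19.2%, 22.7%, 20.7% and 24.0% in cocaine 1 to 4 and 17.9%, 27.6%, 17.7% and 21.5% in saline 1 to 4. Locus chr13-a had 14.97%, 23.1%, 14.6% and 18.3% in cocaine 1 to 4 and 16.8%, 22.2%, 16.9% and 17.9% in saline 1 to 4. Saline 2 was thus the highest saline mouse at these loci, and the groups overlapped at both.

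Spread between mice exceeded counting error at the high-coverage cytosines, although it was small. Between levels of 20% and 80%, the 40 high-coverage cytosines had a median SD within groups of 2.45 points, against a median counting error of 0.641 points. The rest of the autosomal cytosines in that range had a median SD of 7.28 points with a counting error of 3.42 points at a lowest coverage of 100 to under 1000 reads, and of 13.5 points with 6.62 points at 10 to 99 reads. Between 5% and 20% the 20 high-coverage cytosines had a median SD of 3.51 points with a counting error of 0.551 points. Relative to the binomial variance, the dispersion between mice had a median of 26.5 over the loci, from 0.255 at chr11-c to 4888 at chr2-c, and of 4.57 over all runs of cytosines. For the same spread in points this dispersion grows with the number of reads, so these medians do not compare the spread between mice.

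No locus differed between cocaine and saline mice by the test used. The comparison asks how methylation of repeated sequence compares after cocaine and after saline self-administration. Each locus was tested by logistic regression of methylated and unmethylated reads as 1 of 119815 runs of cytosines, with the dispersion between mice moderated by limma and a Benjamini-Hochberg adjustment over all runs. Of the 24 loci, 23 passed the filter of a pooled level from 5% to 95%, and chr10-b did not. A call needed an adjusted p under 0.05 and a difference of at least 10 points. No locus of the 23 met it, and 0 of the 119815 runs were called, which is 0% of all runs. At an unadjusted p under 0.05 there were 0 of 23 loci, against 5.69% of all runs, of which 4.5% were lower and 1.19% higher in cocaine mice. Moderation draws the dispersion of a locus toward a trend on coverage that runs of ordinary depth set. That trend says little of very high coverage, so the p-values of the loci rest in part on a borrowed dispersion. The regression also gives more weight to libraries with more reads, so its p-values are not of the unweighted means printed with SDs. The limma on logit levels called 0 loci, also with 0 at an unadjusted p under 0.05. The test had little power against differences of a few points at this number of mice, so small differences were not detectable, which does not show that levels were alike.

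The differences between the groups were small at each locus. The mean level was lower in cocaine mice at 15 loci and higher at 9, with a median difference of -0.393 points and a median absolute difference of 0.549 points. With reads pooled over each locus, 17 of the 23 tested loci were lower in cocaine mice, against 61.7% of all runs. The median difference in that fit was -0.44 points over the loci and -1.06 points over all runs.

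**Figure D4:**
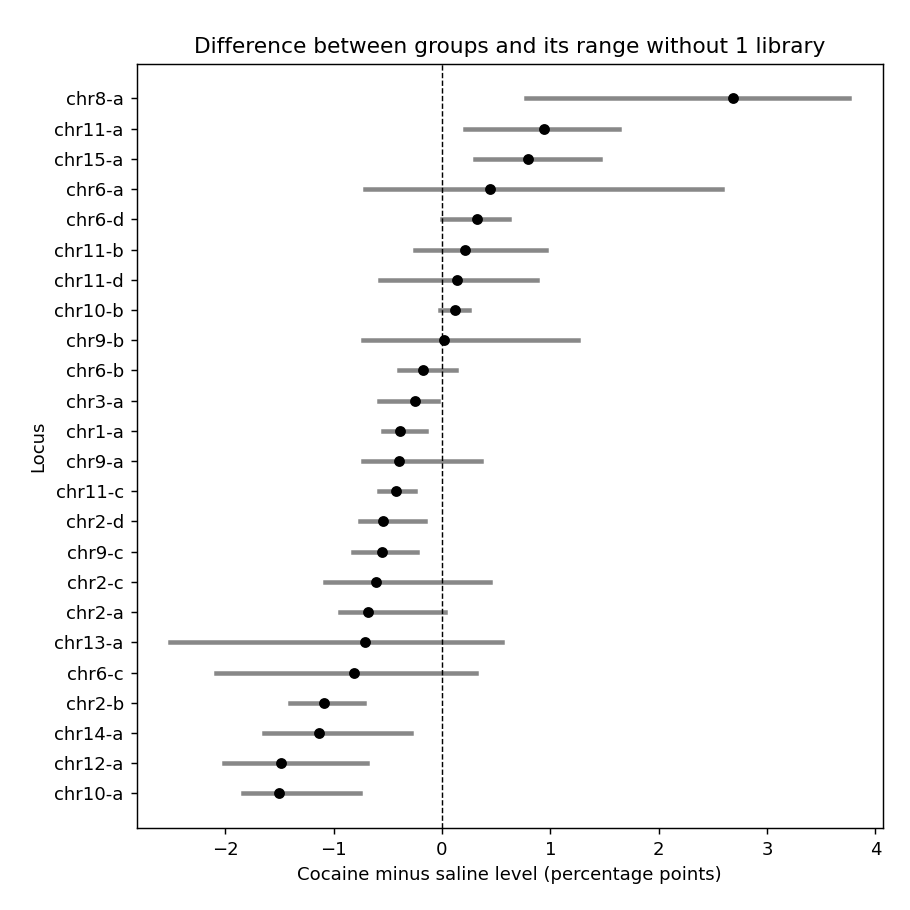
Difference in mean level between cocaine and saline mice in percentage points for each locus (black points), with grey lines from the lowest to the highest value when 1 library is left out. The differences run from -1.50 at chr10-a to 2.68 at chr8-a, and many lines cross 0.

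The largest difference was at chr8-a, one of the sparsely methylated loci. It had 16.3%, 16.2%, 24.4% and 17.8% in cocaine 1 to 4, against 13.5%, 19.2%, 15.2% and 16.2% in saline 1 to 4. The groups overlapped, and cocaine 3 stood above the other 7 libraries. The means were 18.7% ± 3.90 in cocaine mice and 16.01% ± 2.42 in saline mice (SD, n = 4 each), a difference of 2.68 points with an adjusted p of 0.898 in the fit over all runs (limma) and an exact permutation p of 0.343. Without cocaine 3 the difference was 0.772 points.

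Among loci that were higher in cocaine mice, chr8-a was followed in p by chr11-a, chr6-a and chr11-b. Locus chr11-a, a single cytosine, had 87.1% ± 2.23 in cocaine mice and 86.2% ± 1.495 in saline mice (SD, n = 4 each). Locus chr6-a had 21.6% ± 2.14 in cocaine mice and 21.2% ± 4.64 in saline mice, and chr11-b had 72.6% ± 1.56 in cocaine mice and 72.4% ± 1.49 in saline mice (SD, n = 4 each). Each difference was smaller than the SD of either group. Their adjusted p in the fit over all runs (limma) was 0.965, 0.975 and 0.985.

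The loci on chromosomes 2 and 14 led those that were lower in cocaine mice. Locus chr2-c had 86.3%, 86.3%, 81.7% and 85.3% in cocaine 1 to 4, against 85.8%, 85.9%, 85.1% and 85.3% in saline 1 to 4. Its means were 84.9% ± 2.16 in cocaine mice and 85.5% ± 0.383 in saline mice (SD, n = 4 each; exact permutation p = 0.886). Locus chr2-a had 76.9%, 76.7%, 74.0% and 76.9% in cocaine 1 to 4, against 76.6%, 77.0%, 77.0% and 76.6% in saline 1 to 4. At both loci cocaine 3 alone lay below all other libraries. Without cocaine 3 the differences in the mean over cytosines were 0.444 points at chr2-c and 0.032 points at chr2-a, so their sign turned. The fit over all runs pools reads instead, and there the differences over all mice were larger, -1.65 points at chr2-c and -1.95 points at chr2-a. The turn of sign was not computed for pooled reads, so it does not carry over to the adjusted p below. Locus chr14-a had 81.2%, 81.2%, 77.2% and 79.4% in cocaine 1 to 4, against 81.8%, 81.4%, 80.1% and 80.2% in saline 1 to 4, and chr2-b at chr2:98665063-98665073 had 84.1%, 83.2%, 82.5% and 84.5% in cocaine 1 to 4, against 85.2%, 84.1%, 85.6% and 83.8% in saline 1 to 4. Cocaine 3 was again the lowest library at both. The adjusted p in the fit over all runs (limma) was 0.904 at chr2-c, 0.904 at chr2-a, 0.946 at chr14-a and 0.947 at chr2-b.

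Cocaine 3 was also the lowest library at the loci that share their spacing with chr2-c. It had 86.7% at chr9-a, where the other 7 libraries lay between 88.8% and 90.0%, and 76.3% at chr9-b, where the others lay between 78.7% and 82.2%. At chr12-a it had 82.6%, against 84.5% to 87.4% in the others. On the plus strand of chr2-c from 329 bp on, cocaine 3 had 80.1%, and the other libraries lay between 83.9% and 85.5%. The cytosines in the first 10 bp of chr2-c did not share this, with 91.4% in cocaine 3 and 90.0% to 91.4% in the other libraries. Over the rest of the autosomal cytosines, cocaine 3 also had the lowest mean level, 36.4%, against 37.0% to 38.1%.

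Only chr10-a had groups that did not overlap in level. It had 44.9%, 48.2%, 47.5% and 48.1% in cocaine 1 to 4, against 48.7%, 48.6%, 48.7% and 48.7% in saline 1 to 4. The means were 47.2% ± 1.53 in cocaine mice and 48.7% ± 0.0351 in saline mice (SD, n = 4 each). The difference of -1.50 points had an exact permutation p of 0.0286, the smallest that 4 against 4 allows and not adjusted for the 24 loci, and an adjusted p of 0.967 in the fit over all runs (limma). The dispersion of this locus was 3.03 before it was moderated toward the trend over all runs. Groups that do not overlap were found at 1 of 23 tested loci and at 3.35% of all runs (2.55% with lower levels in cocaine mice), so the share is near the background. Most of the difference lay in the cytosine that is read first, with 94.1% ± 3.05 in cocaine mice and 96.9% ± 0.105 in saline mice (SD, n = 4 each), and cocaine 1 was lowest there at 89.6%. The other cytosine had 0.259% ± 0.0214 in cocaine mice and 0.510% ± 0.102 in saline mice (SD, n = 4 each), and its groups did not overlap either. Cocaine 1 also had the lowest coverage at this locus, and the part of coverage in the difference was not tested. Without cocaine 1 the locus differed by -0.753 points.

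Single cytosines gave the same picture. Of the 143 high-coverage cytosines tested with their own dispersion, 0 were called, as were 0 of all 666028 cytosines, which is 0% of them. At an unadjusted p under 0.05 there were 3 of 143, against 5.12% of all cytosines. Of these 1 was lower in cocaine mice, against 3.47% of all cytosines, and 2 were higher, against 1.65%. The limma fit on logit levels called 0, with 5 at an unadjusted p under 0.05. With 6 residual degrees of freedom and an adjustment over so many cytosines this test had little power. In cocaine mice 2 cytosines of chr2-c were higher by 1.27 and 1.30 points, and 1 cytosine of chr2-b was lower by 2.61 points, all with an adjusted p of 0.945 by the quasi-binomial fit with Benjamini-Hochberg adjustment. Groups did not overlap at 2 of the 143, against 2.93% of all cytosines tested, and 1 of them was lower in cocaine mice, against 1.98%. The mean level was lower in cocaine mice at 85 of the 143, against 56.9% of all cytosines tested. The largest difference at a tested cytosine was -5.16 points, at 364 bp of chr2-a on the plus strand, with 56.0% ± 4.38 in cocaine mice and 61.2% ± 2.03 in saline mice (SD, n = 4 each).

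Coverage is described next without a test, since it chose the cytosines. The high-coverage cytosines took 2.97%, 2.04%, 2.26% and 3.28% of listed reads in cocaine 1 to 4, and 2.43%, 2.09%, 1.37% and 1.80% in saline 1 to 4. The means were 2.63% ± 0.582 in cocaine mice and 1.92% ± 0.451 in saline mice (SD, n = 4 each), and the groups overlapped. The difference of 0.715 points became 1.01 points without cocaine 3 and saline 1. Without the cytosine of most reads the shares were 1.81% ± 0.418 in cocaine mice and 1.21% ± 0.334 in saline mice (SD, n = 4 each). Coverage was then divided by the library's median over the common autosomal cytosines. By this scaled coverage 21 loci had a higher mean in cocaine mice and 3 a lower one. The ratio of cocaine to saline means ran from 0.590 at chr10-a to 2.17 at chr2-b, and some ratios lay close to even, such as 1.007 at chr1-a. The share of all runs with a higher mean in cocaine mice was not computed. The loci are not separate observations, since 7 of them had the same 4 highest libraries.

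**Figure D5:**
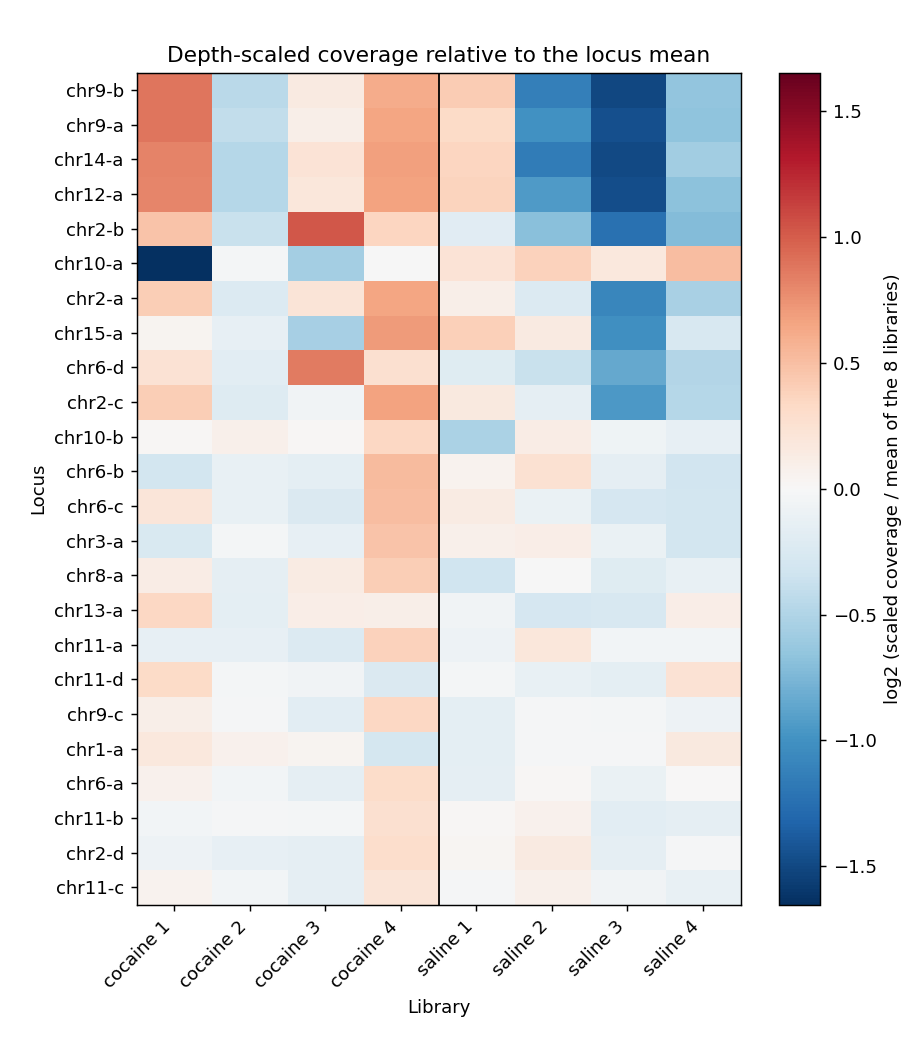
Scaled coverage of each locus in each library as log2 of its ratio to the mean of the 8 libraries, with cocaine libraries left of saline libraries and loci ordered from the largest to the smallest spread. Loci with the spacing of chr2-c at the top share 1 order of libraries, with cocaine 1 and cocaine 4 high and saline 3 low, while the loci at the bottom hardly vary.

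Of the loci with the spacing of chr2-c, chr9-a, chr9-b, chr12-a and chr14-a varied most among libraries and did so in step. Scaled coverage differed between the highest and the lowest library 5.26-fold at chr9-b, 5.10-fold at chr9-a, 4.97-fold at chr14-a and 4.82-fold at chr12-a. At chr2-c itself it differed 3.08-fold, less than at chr2-b, with 4.79-fold, and at chr10-a, with 4.49-fold. At chr9-b it was 519.9, 206, 311 and 428 in cocaine 1 to 4, against 377, 129, 98.9 and 178 in saline 1 to 4. Cocaine 1, 3 and 4 and saline 1 were the 4 highest libraries at 7 loci, namely chr2-a, chr2-b, chr2-c, chr9-a, chr9-b, chr12-a and chr14-a. Saline 3, the most deeply read library, was the lowest at all of these. The groups overlapped at each of these loci, where saline 1 was above cocaine 2, and at chr2-c, chr9-a, chr9-b, chr12-a and chr14-a also above cocaine 3.

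Within chr2-c, cytosines behaved differently. Scaled coverage on the plus strand from 329 bp on was 931, 384, 565 and 811 in cocaine 1 to 4, against 677, 254, 182 and 327 in saline 1 to 4. In the first 10 bp it was nearly level, with 578 ± 31.4 in cocaine mice and 530.1 ± 21.8 in saline mice (SD, n = 4 each). In chr2-a the first 6 and the last 4 cytosines were, like chr9-b, highest in cocaine 1, at 403, and lowest in saline 3, at 77.7. The cytosine at 530 bp, which had 97769 to 207262 reads in a library, was highest in cocaine 4, at 4410, followed by saline 2, at 3177, whereas the 12 cytosines in the middle from 291 to 421 bp was highest in cocaine 3 at 213, against 58.8 to 159 in the other libraries.

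Loci chr2-b and chr6-d were, like the middle of chr2-a, highest in cocaine 3, with 149 at chr2-b and 219 at chr6-d, and lowest in saline 3, with 31.0 at chr2-b and 67.5 at chr6-d. At chr6-d the groups did not overlap in scaled coverage, which was so at 3.22% of all 147797 runs, with 142, 108, 219 and 146 in cocaine 1 to 4, against 106, 93.7, 67.5 and 86.9 in saline 1 to 4. Its level was 80.5% ± 0.633 in cocaine mice and 80.1% ± 0.699 in saline mice (SD, n = 4 each). Locus chr10-a was the other with groups that did not overlap, in the opposite direction, with 45.02, 139, 95.6 and 141 in cocaine 1 to 4, against 166, 185, 160 and 202 in saline 1 to 4.

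Of the remaining loci, chr15-a at chr15:75085813-75086732 varied 3.30-fold, with 188, 166, 125 and 298 in cocaine 1 to 4, against 240, 204, 90.5 and 153 in saline 1 to 4, and its groups overlapped. The smallest ratio of the highest to the lowest library was 1.29 at chr11-c, followed by 1.35 at chr2-d and 1.36 at chr11-b, and 14 loci stayed under 2. The ratio at chr11-b is of a mean over both strands, which were highest in different libraries. Cocaine 4 had the highest scaled coverage at 14 loci and saline 3 the lowest at 11. The cocaine libraries and saline libraries also differ in depth, with a median common coverage of 44 to 61 reads in cocaine libraries and 54 to 78 in saline libraries, and the part of depth in the coverage of the repeats was not tested.

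Exact copies of a locus' CpG spacing elsewhere among the common cytosines had coverage from ordinary depth upward. For chr12-a there were 7 copies with a median coverage of 43.9 reads and levels from 81.4% to 89.3%, beside 85.7% at the locus. For chr2-d there were 11 copies with a median coverage of 34.2 reads and levels from 64.4% to 77.3%, beside 75.5% at the locus. For chr9-a there were 43 matches with a median coverage of 103 reads, up to 47955, and a median level of 82.2%. The matches with 47955 and 5047 reads lay within chr2-c, a locus described above. For chr10-b there were 28 matches with a median coverage of 48.0 reads, up to 991, and a median level of 90.1%. With only 4 CpGs these included 7 and 8 places under 5%, so not every match need be a copy of the same repeat.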

How the data were processed

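Per the submitters' processing notes, bcl2fastq and Bismark 22.1 were used, with mm10 as the genome build. The deposited level is a fraction of methylated reads per cytosine and strand, written here as a percent. The coverage that the authors deposited is a read count, at least 10 per listed cytosine. Level times coverage was whole at 100% of cytosines within 5e-07 per read, so methylated reads were recovered by rounding. Neither a trimming step nor a removal of duplicate reads is stated in the labels. No genome sequence was used here, and genes came from a RefSeq table of GRCm38.p6, whose chromosomes share the coordinates of mm10.

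Cytosines of chromosomes 1 to 19, X and Y listed in all 8 libraries were joined into runs with gaps of at most 1 kb, with high-coverage cytosines, the left-out stretch of chromosome 17 and the rest kept apart. Runs were fitted by quasi-binomial logistic regression in Python 3.11.15 with numpy 2.4.6, and dispersions were moderated with limma 3.58.1 in R 4.3.3 (trend on log coverage, floor of 1). An F test and a Benjamini-Hochberg adjustment over all runs followed. Single cytosines kept their own dispersion. Both fits were tested on simulated reads, with planted differences at features drawn from all depths and a fixed spread between mice. High-coverage loci are 24 of 147797 runs, so this says little of the fits at these loci. Each locus mean was also tested by exact permutation, two-sided, over 70 assignments, and CpG spacing by equal distances in bp.

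The groups and replicate numbers come from the sample titles. The titles do not say that equal numbers pair mice, so the main fits used no pairing. Deviations from the group means of equal-numbered libraries correlated by -0.0657, -0.0210, 0.0485 and 0.0535 over 3382 runs. This cannot show whether mice were matched, since matched mice need not share deviations in level. No library repeats another, as the lowest chi-square per run among 28 pairs was 14.2. The cytosines, loci and rules were chosen with earlier results of these data known. Loci were named by most cytosines, smallest p in each direction, lowest and highest level, largest spread within groups, and largest and smallest ratio of scaled coverage. Other loci and cytosines were named after their values were seen, as were the end CpGs and their copies.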

Additional observations from a re-analysis of the deposited data

Results flagged for a closer look

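In 100 groups of 4 libraries, made of the level and the scaled coverage of each locus and of summary values, 5 libraries stood far from the other 3 of their group. For a single group chance alone gives about 1 in 20. The groups reuse the same 8 libraries and are not separate observations, so this number cannot be judged against chance. Locus chr2-a had a level of 73.98% in cocaine 3, against 76.7% to 76.9% in the other cocaine mice. At chr2-d the scaled coverage was 32.1 in cocaine 4, against 23.8 to 24.9 in the other cocaine mice. At chr11-a, in the pseudogene Pisd-ps1, it was 69.2 in cocaine 4, against 45.3 to 48.1 in the other cocaine mice, and 60.5 in saline 2, against 50.1 to 51.3 in the other saline mice. At chr11-b, in Sfi1, it was 72.7 in cocaine 4, against 58.4 to 59.8 in the other cocaine mice. This mean hides a difference between strands. All 5 minus-strand cytosines of chr11-b were highest in cocaine 4, while all 5 plus-strand cytosines were lowest in cocaine 4 and highest in saline 1.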

How the results depend on the processing

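No locus and no high-coverage cytosine was called under any alternative run: limma on logit levels, no filter on the pooled level, no minimum difference, other dispersions, minimums of 500 or 2000 reads, gaps of 100 bp or 10 kb, and fits without 1 library or without cocaine 3 and saline 1. With the replicate number as a block (replicate block), 0 loci and 0 cytosines were called and the difference in mean level stayed at -0.248 points. Only at chr10-a did the block end a result, with an exact permutation p of 0.125, the smallest that 4 pairs allow, and without any 1 saline library its exact p was 0.0857. The difference in mean level over the high-coverage cytosines was 0.668 points with reads pooled, where the cytosine of most reads weighs most, and -0.490 to 0.215 points without 1 library. It was -0.646 points with the chromosome 17 stretch included, -0.139 points at a minimum of 2000 reads and -0.329 points at 500 reads. The difference in the share of reads was 0.501 to 0.913 points without 1 library. With reads pooled the sign turned at chr6-d, to -0.191 points, and at chr15-a, to -0.380 points, and the cause was not tested. Without 1 library the sign turned at 11 loci, with differences in points from -0.937 to 0.032 at chr2-a, -1.08 to 0.444 at chr2-c, -0.713 to 2.59 at chr6-a, -0.399 to 0.126 at chr6-b, -2.09 to 0.315 at chr6-c, -0.732 to 0.356 at chr9-a, -0.726 to 1.25 at chr9-b, -0.0151 to 0.249 at chr10-b, -0.249 to 0.959 at chr11-b, -0.574 to 0.873 at chr11-d and -2.51 to 0.551 at chr13-a. These are differences of the mean over cytosines, not of pooled reads. At chr2-a, chr2-c and chr9-a the turn needs cocaine 3 left out. With 4 mice a group and read counts above 1000, the spread between mice rather than the depth limits these comparisons at most loci.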
